A study of Mus musculus with 6 samples.

Results

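The Dlk1-Dio3 miRNA cluster is the large group of microRNA (miRNA) genes in an imprinted domain of mouse chromosome 12. Its members were chosen by name: 48 listed symbols that the authors' table types as miRNA, out of 2207 miRNA genes and 30638 features in all. The rule itself uses no measured value, but the cluster was picked for description with earlier results of these data known. Small RNA was counted in whole hearts of C57BL/6 mice, with 3 mice per group and 1 deposited count column, here called a library, per mouse. Knockout mice (titles "L/L, cre", genotype Elac2 -/-) carried an Elac2 allele with 1 exon between loxP sites and a cre transgene under the muscle creatine kinase promoter. Control mice (titles "L/L") carried the loxP alleles without cre, although their genotype label reads Elac2 +/+. Age and sex are not given in the labels. Elac2 encodes RNase Z, the enzyme that removes 3′ trailers from nuclear and mitochondrial tRNA precursors. Since that promoter acts in striated muscle, fibroblasts, vessel cells and blood cells of these hearts were not its target. Elac2 itself was not analysed here, so the targeted gene could not serve as a check of the labels.

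Genes of this domain are expressed from 1 parental chromosome each. The paternal copy expresses the protein-coding genes Dlk1, Rtl1 and Dio3, and the maternal copy expresses the long non-coding RNAs Meg3, Rian and Mirg together with the miRNAs and box C/D small nucleolar RNAs (snoRNAs) that lie in or between them. miRNAs are cut from hairpins into short mature strands, named 5p and 3p by the hairpin arm, which guide Argonaute proteins to mRNAs chiefly through the seed, bases 2 to 8. In mice the cluster is prominent in embryonic tissues, placenta and brain, and its expression in striated muscle falls after birth.

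In GRCm38 (GENCODE M21) the 48 hairpins span 180.1 kb at chr12:109563692-109743795, 47 of them on the plus strand. Mir299b lies on the minus strand, opposite Mir299a. Of these 48, 6 lie upstream of Rtl1 (Mir770 to Mir665) and 5 opposite the Rtl1 gene (Mir431, Mir433, Mir127, Mir434 and Mir136). Another 2 lie in the Rian region (Mir341 and Mir370), and 35 run from Mir379 to Mir410 in 34.7 kb that end inside Mirg. Counts were deposited per hairpin gene, so the 5p and 3p strands could not be told apart. Sequences below are from RefSeq (GRCm38.p6), where all 48 genes had a mature entry. The 8 genes that passed the test of knockout against control come first, in order along the chromosome, with the seed in capitals.
miR-337-5p: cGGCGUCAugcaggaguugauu
miR-337-3p: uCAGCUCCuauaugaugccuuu
miR-433-5p: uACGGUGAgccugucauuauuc
miR-433-3p: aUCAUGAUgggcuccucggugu
miR-127-5p: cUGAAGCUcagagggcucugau
miR-127-3p: uCGGAUCCgucugagcuuggcu
miR-434-5p: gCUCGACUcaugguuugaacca
miR-434-3p: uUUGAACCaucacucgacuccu
miR-379-5p: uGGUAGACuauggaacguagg
miR-379-3p: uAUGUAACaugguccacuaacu
miR-380-5p: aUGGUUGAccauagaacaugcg
miR-380-3p: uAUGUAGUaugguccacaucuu
miR-494-5p: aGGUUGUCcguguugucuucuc
miR-494-3p: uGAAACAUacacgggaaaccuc
miR-382-5p: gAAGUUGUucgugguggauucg
miR-382-3p: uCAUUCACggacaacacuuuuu

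The cluster held 91 mature sequences with 84 distinct seeds, and 7 seeds were shared by a pair of its own mature strands. Among the genes above, miR-379 shares its 3p seed with the neighbouring miR-411 and its 5p seed with miR-1193, and miR-494-5p shares a seed with miR-410-5p. The partners are shown because genes with a common seed address a common set of sites.
miR-411-3p: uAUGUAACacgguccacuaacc
miR-1193-5p: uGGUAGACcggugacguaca
miR-410-5p: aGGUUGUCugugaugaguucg
Reads of near-identical strands can be split between genes, and the most abundant pair of this kind is miR-381 with miR-300, whose 3p strands differ at 3 of 22 positions.
miR-381-3p: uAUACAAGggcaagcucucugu
miR-300-3p: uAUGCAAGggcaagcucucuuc
Counts of Mir379 with Mir411, of Mir376b with Mir376c and of Mir299a with Mir299b are uncertain for the same reason. These strands differ at 2 of 22 positions in miR-379-3p and miR-411-3p, at 1 of 22 in the miR-376b and miR-376c 5p strands, and at 0 of 21 in the Mir299a and Mir299b 5p strands.

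Of the 48 genes, 41 had at least 1 count and 7 had 0 counts in all 6 libraries: Mir770, Mir544, Mir134, Mir485, Mir453, Mir377 and Mir410. All 5 members that lie wholly inside an exon of another counted feature on the same strand, Mir770 inside Meg3 and Mir134, Mir485, Mir377 and Mir410 inside Mirg, were among those 7. Of the 39 members with no such overlap, 2 had 0 counts (Mir544 and Mir453). The same held across the table: 98 of 100 other miRNA genes wholly inside a same-strand exon had 0 counts, against 59.8% of 2004 other miRNA genes with no such overlap. All 83 snoRNA and small Cajal body RNA (scaRNA) genes wholly inside such an exon also had 0 counts. A 0 for those 5 members is therefore no measure of their RNA, which includes miR-410, reported to promote proliferation of cultured rat cardiomyocytes, and miR-134, which limits dendritic spine size in neurons. By contrast, 6 members are wholly covered by a feature on the opposite strand only, and all 6 had counts.

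The difference can be seen in a pair of hairpins of the Mirg region, printed with the mature strands in capitals. The first, Mir382 (chr12:109733771-109733846, plus strand), shares 2 of its 76 bases with a Mirg exon and had 1880 counts over the 6 libraries. The second, Mir410 (chr12:109743715-109743795, plus strand), has all 81 bases inside a Mirg exon and had 0.
Mir382: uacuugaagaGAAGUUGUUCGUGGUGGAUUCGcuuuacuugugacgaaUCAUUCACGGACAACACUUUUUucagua
Mir410: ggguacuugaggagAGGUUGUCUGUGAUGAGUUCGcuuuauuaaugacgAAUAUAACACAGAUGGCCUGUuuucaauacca
A count of 0 allows up to 3 counts, or from 0.185 to 0.222 unscaled CPM (counts per 1000000 counts) in these libraries. This limit covers counting error only and applies to Mir544 and Mir453, which overlap no other counted feature on their strand.

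Libraries held 14505705, 15271036 and 14947237 counts in knockout mice 1 to 3 and 13510061, 16248673 and 15951770 counts in control mice 1 to 3. miRNAs made up 29.2% to 33.3% of knockout counts and 39.5% to 43.4% of control counts. All further CPM values are after TMM scaling, in which edgeR sets library sizes so that most features do not change. The TMM factors were 0.9493, 0.8279 and 0.8892 in knockout mice 1 to 3 and 1.139, 1.094 and 1.148 in control mice 1 to 3. This scaling thus raised knockout values relative to control values. For single genes, overlap of the groups in CPM was read after TMM scaling and not under other scalings. Nothing in the labels says that mice of a group came from separate litters, and the p-values measure the spread between these mice.

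The cluster as a whole took a larger part of the miRNA counts in knockout hearts, and about the same part of all counts. Its members summed to 0.461%, 0.352% and 0.374% of miRNA counts in knockout mice 1 to 3, against 0.301%, 0.219% and 0.309% in control mice 1 to 3. Every knockout mouse lay above every control mouse, and the mean was 0.396% ± 0.0576 in knockout and 0.276% ± 0.0498 in control hearts (SD, n = 3 each), a ratio of 1.43. As a part of all counts the cluster held 0.135%, 0.111% and 0.125% in knockout mice and 0.131%, 0.0918% and 0.122% in control mice. Those values overlapped, with a ratio of 1.08. The 5 most abundant other miRNA genes, led by the muscle miRNA genes Mir1a-1 and Mir1a-2, made up 53.2% ± 2.76 of miRNA counts in knockout and 59.1% ± 1.65 in control hearts (SD, n = 3 each). With those 5 left out, the cluster's mean share of the remaining miRNA counts was 0.844% in knockout and 0.672% in control hearts, and the groups still did not overlap. No p is given for these sums, since the members were chosen with earlier results of these data known.

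**Figure D1:**
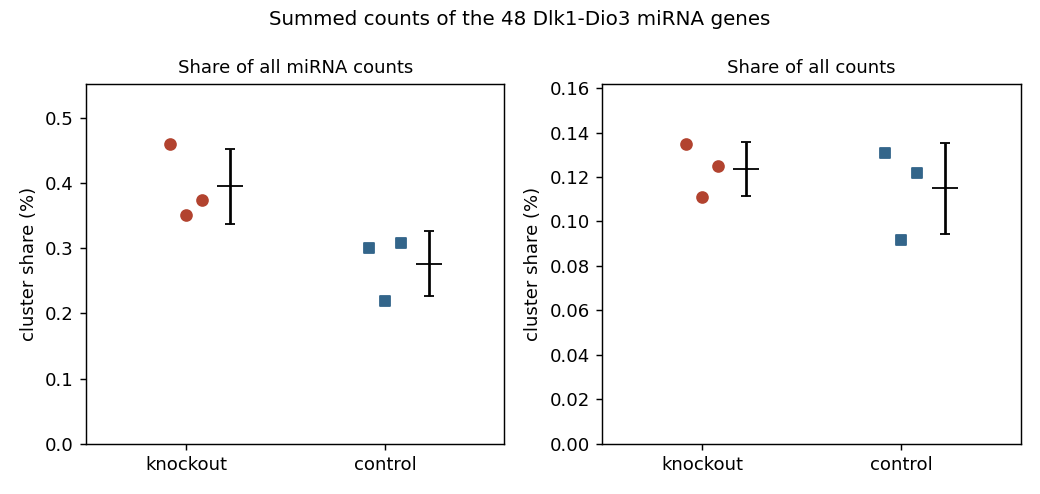
Summed counts of the 48 Dlk1-Dio3 miRNA genes as a percentage of miRNA counts (left) and of all counts (right), for each knockout and control mouse (points), with the mean and SD (bar, n = 3) beside them. The groups are apart on the left (0.352% to 0.461% in knockout against 0.219% to 0.309% in control) and overlap on the right (0.111% to 0.135% against 0.0918% to 0.131%).

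Of the 48 genes, 34 passed the filter on low counts, and they held 99.8% of the cluster's counts. With Benjamini-Hochberg adjustment over 1144 features, edgeR's quasi-likelihood test found that 8 of the 34 rose in knockout hearts and 0 fell. That is 23.5% of the tested members, close to the 23.2% of all features called higher, while 27% of all features and 7.19% of the 278 other miRNA genes tested were called lower. Among those other miRNA genes, 16.2% were called higher. The log2 fold change was above 0 for 33 of 34 members, Mir370 being the exception, and the median was 0.48, against 0.16 in the other miRNA genes and -0.01 in all features. In TMM-scaled CPM, every knockout mouse lay above every control mouse for 18 of the 34 members, against 29.4% of all features and 25.9% of the other miRNA genes. For 0 of the 34 did every knockout mouse lie below every control mouse.

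The direction of the group depended on how libraries were scaled, so that a rise here means a rise relative to the chosen reference. With total counts alone, 0 members were called higher (14.9% of all features were) and the median fold change was 0.14. With factors from miRNA genes only 1 member, Mir382, was called higher (16.6% of all features) and the median was 0.30, and fitting the miRNA genes alone also gave Mir382 as the one call (8.36% of features higher). Under snoRNA and scaRNA factors the median turned to -0.36, with 0 members called higher (8.83% of all features) and 5 called lower (Mir411, Mir495, Mir376b, Mir543 and Mir370, against 57.6% of all features). With factors from small nuclear RNA and nuclear rRNA genes 23 were called higher (35.8% of all features) and the median was 1.03. On the log2 scale, total counts moved the median over all features by -0.34 and miRNA factors by -0.18. It moved by -0.85 under snoRNA and scaRNA factors and by 0.55 under small nuclear RNA and rRNA factors. A change of scaling shifts all fold changes by nearly the same amount. The gap between the members' median and that of the other miRNA genes could therefore hardly move with it, and its steadiness is no separate result. The gap was 0.33 here and between 0.24 and 0.38 in 15 alternative fits.

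**Figure D2:**
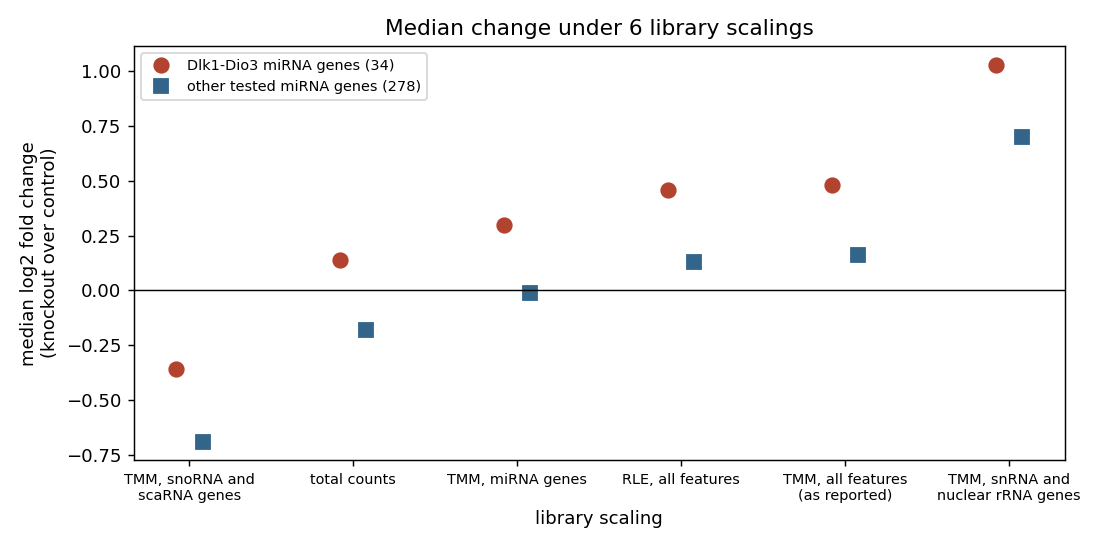
Median log2 fold change (knockout over control) of the 34 tested Dlk1-Dio3 miRNA genes (circles) and of the 278 other tested miRNA genes (squares) under 6 library scalings. Both medians move together, the members' from -0.36 to 1.03 with a sign that turns under snoRNA and scaRNA factors. The gap between them is 0.31 to 0.33 and could hardly change, since a scaling shifts all fold changes by nearly the same amount.

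The count of calls also changed with the mice included. Without knockout mice 1, 2 and 3 in turn, 11 of 35, 18 of 34 and 14 of 35 tested members were called higher, where 22.9%, 23.5% and 21.8% of all features were. Without control mice 1, 2 and 3 in turn, 16 of 35, 3 of 35 and 2 of 34 were called higher, where 24.8%, 21% and 19.3% of all features were. The members' count thus ranged from above to below the share of all features, which itself moved little. Of the other miRNA genes, 45 of 278 were called higher with all mice. Without knockout mice 1, 2 and 3 they were 77 of 288, 67 of 281 and 61 of 284. Without control mice 1, 2 and 3 they were 69 of 286, 49 of 285 and 33 of 284. Without a knockout mouse, fold changes over shared features also shifted up by 0.21 to 0.24, and 1389 to 1405 features were tested. Mir382 and Mir337 were called in each of these 6 fits.

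The members opposite Rtl1 lie in the antisense transcript of that gene, and miR-127 and its neighbours pair fully with Rtl1 mRNA and direct its cleavage in mouse placenta. All 5 were tested and 3 rose (median log2 fold change 0.50), where 23.2% of all features were called higher. In all 5 every knockout mouse lay above every control mouse in TMM-scaled CPM, which held for 29.4% of all features. Raw counts, not corrected for depth, overlapped between the groups in all 5. Under snoRNA and scaRNA factors the fold changes of Mir127, Mir434, Mir433 and Mir136 were negative. Mir127 (chr12:109592846-109592915) was the most abundant member, with 24.6% of the cluster's counts. It had 325, 368 and 345 CPM in knockout mice 1 to 3, against 251, 222 and 263 CPM in control mice 1 to 3. The groups did not overlap, and the log2 fold change was 0.50 (SE 0.17, adjusted p = 0.0285). Mir434 (chr12:109594506-109594599) had 136, 130 and 145 CPM in knockout mice, against 105, 89.1 and 95.7 CPM in control mice. Its log2 fold change of 0.51 (SE 0.17, adjusted p = 0.0309) was nearly that of Mir127, and both calls were lost without control mouse 2 (adjusted p = 0.0776 for Mir127 and 0.0806 for Mir434) or 3 (0.0705 and 0.115). Mir433 (chr12:109591715-109591838), a miRNA that promotes cardiac fibrosis in rodent hearts after infarction, had 10.2, 8.07 and 9.78 CPM in knockout mice and 7.35, 5.07 and 5.46 CPM in control mice. Its log2 fold change was 0.65 with SE 0.23 (adjusted p = 0.0366), a call also lost without control mouse 2 (0.111) or 3 (0.136). Mir136 and Mir431 were not called. Mir136 had 19.9, 20.8 and 25.6 CPM in knockout against 17.7, 17.6 and 13.2 CPM in control mice (log2 fold change 0.45, SE 0.22, adjusted p = 0.103), so its groups did not overlap although the test did not call it. Mir431 averaged 2.47 ± 0.187 CPM in knockout and 1.79 ± 0.186 CPM in control hearts (SD, n = 3 each), with an adjusted p of 0.16.

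Upstream of Rtl1, 4 of 6 members were tested and 1 of them, Mir337, rose (25.0% of those tested, near the 23.2% of all features). Mir337 (chr12:109585789-109585885) had 18.2, 15.7 and 17.2 CPM in knockout mice, against 11.1, 9.8 and 10.8 CPM in control mice. The groups were well apart, and its log2 fold change was 0.69 (SE 0.20, adjusted p = 0.0127). Mir493 was not called, with 4.83 ± 0.412 CPM in knockout and 3.13 ± 1.08 CPM in control hearts (SD, n = 3 each; log2 fold change 0.63, adjusted p = 0.0778). Mir540 and Mir673 had log2 fold changes of 0.32 and 0.06 (adjusted p = 0.578 and 0.883), and Mir665 had at most 3 counts in a library. In the Rian region neither gene was called. Mir370, which lowers the fatty acid oxidation gene Cpt1a in human liver cells, had 17.7, 14.5 and 13.0 CPM in knockout and 21.6, 9.07 and 18.2 CPM in control mice. It was the one tested member with a negative log2 fold change (-0.11, SE 0.30, adjusted p = 0.775), and its control mice spread more widely than its knockout mice. Mir341 had 6.32, 4.83 and 4.82 CPM in knockout and 3.84, 3.66 and 4.1 CPM in control mice (log2 fold change 0.46, SE 0.23, adjusted p = 0.115).

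The run from Mir379 to Mir410 is a polycistronic cluster that MEF2 transcription factors activate in mouse neurons and muscle. Of its 35 listed genes 23 were tested, 4 of them rose (Mir379, Mir380, Mir494 and Mir382), and the median log2 fold change was 0.51. That is 17.4% of the tested genes, below the 23.2% of all features and near the 16.2% of other miRNA genes called higher. Mir382 had the lowest adjusted p of all members. It had 26.8, 23.9 and 30.7 CPM in knockout mice, against 15.1, 17.6 and 13.9 CPM in control mice. The lowest knockout mouse stood above the highest control mouse by more than the SD of either group (3.42 in knockout and 1.88 in control), and the log2 fold change was 0.80 (SE 0.21, adjusted p = 0.00676). In raw counts it had 369, 302 and 408 in knockout and 233, 313 and 255 in control mice. In the fit of the miRNA genes alone, members included, the log2 fold change was 0.61 (adjusted p = 0.0336). Mir379 (chr12:109709060-109709125), the first hairpin of the run, had 2937, 2512 and 2703 raw counts in knockout mice, against 2524, 1984 and 2488 raw counts in control mice. After scaling it averaged 205 ± 7.47 CPM in knockout and 137 ± 26.2 CPM in control hearts (SD, n = 3 each), and the groups did not overlap. The log2 fold change was 0.58 with SE 0.19 (adjusted p = 0.025), a call lost without control mouse 2 (adjusted p = 0.0798) or 3 (0.0909).

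The remaining pair of called genes was rare. Mir494 (chr12:109715318-109715402), which protects the heart from ischemic injury when overexpressed in mice, had 3.12, 3.09 and 3.76 CPM in knockout mice, against 1.24, 2.7 and 0.874 CPM in control mice. It had the highest log2 fold change of the members (1.04, SE 0.38, adjusted p = 0.0392). Control mouse 2 lay closest below the knockout mice and the other control mice lower, and the call was lost without control mouse 3 (log2 fold change 0.71, adjusted p = 0.15). Mir380 (chr12:109711803-109711863), whose 5p strand represses p53 in mouse and human cells, had 1.45, 1.27 and 1.81 CPM in knockout mice, against 1.04, 0.789 and 0.601 CPM in control mice. Those CPM rest on 16 to 24 counts per knockout library and 11 to 16 per control library, and the log2 fold change was 0.90 (SE 0.34, adjusted p = 0.0466). The call was lost without knockout mouse 3 (adjusted p = 0.107), control mouse 2 (0.111) or control mouse 3 (0.205), and also with RLE size factors (0.0519) and with DESeq2 (0.151). In all it was lost in 10 of 15 alternative fits. Mir380 stood just inside the threshold, and Mir300 (adjusted p = 0.051) and Mir409 (0.0549) stood just outside.

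**Figure D3:**
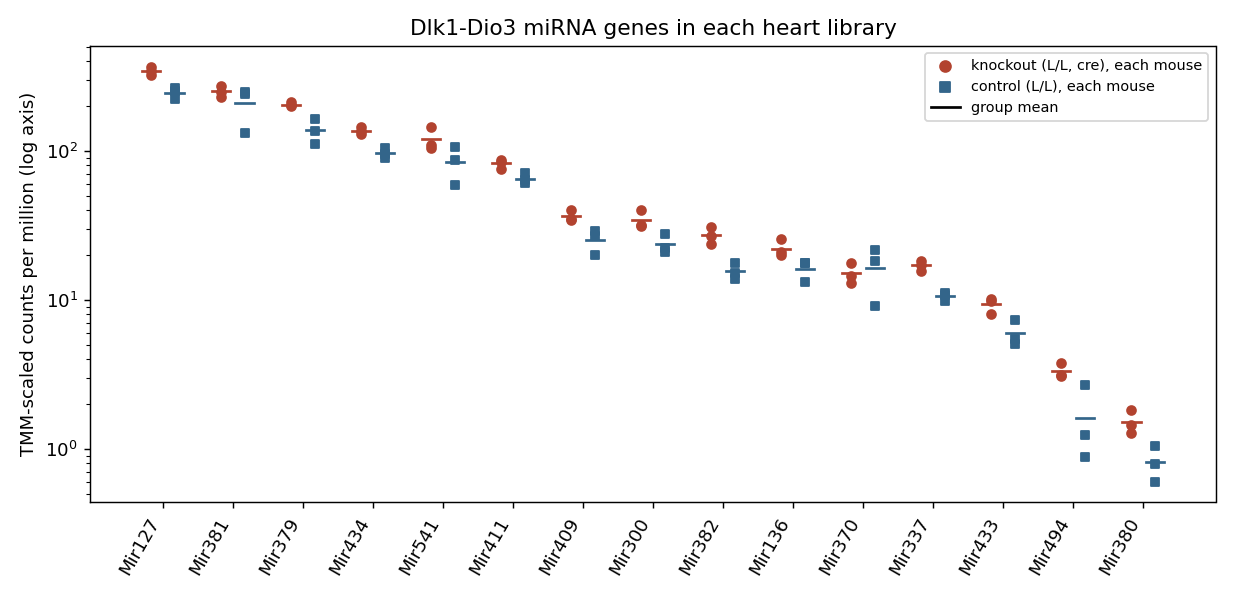
TMM-scaled CPM (log axis) of 15 Dlk1-Dio3 miRNA genes in each knockout (circles) and control (squares) mouse, with group means as bars, ordered by mean level. Knockout mice lie above all control mice for each gene shown except Mir381, Mir541 and Mir370; for these 15 genes the fold change turns negative under snoRNA and scaRNA factors except for Mir494 and Mir380 (Mir370 is negative in both).

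Several abundant members of the run did not pass the test. Mir381 had 249, 232 and 272 CPM in knockout mice, against 250, 132 and 243 CPM in control mice. Control mice 1 and 3 lay at the level of the knockout mice, and the groups overlapped (log2 fold change 0.27, SE 0.24, adjusted p = 0.371). Mir541, which counters hypertrophic growth of cultured cardiomyocytes, had 144, 110 and 105 CPM in knockout and 107, 58.9 and 87.4 CPM in control mice (log2 fold change 0.51, SE 0.24, adjusted p = 0.0991). Mir411, the neighbour of Mir379, had 84.8, 75.7 and 87.1 CPM in knockout and 71.0, 63.4 and 61.0 CPM in control mice, groups that did not overlap (log2 fold change 0.34, SE 0.18, adjusted p = 0.13). Mir409 had 39.9, 34.9 and 34.3 CPM in knockout and 28.8, 20.1 and 26.9 CPM in control mice (log2 fold change 0.53, SE 0.21). Mir300 had 40.0, 31.2 and 31.8 CPM in knockout and 27.7, 22.3 and 21.1 CPM in control mice (log2 fold change 0.54, SE 0.21). In Mir409 and Mir300 alike every knockout mouse lay above every control mouse. Mir543 stood near 0, with 13.7 ± 1.4 CPM in knockout and 13.2 ± 4.34 CPM in control hearts (SD, n = 3 each; log2 fold change 0.05, adjusted p = 0.877). Mir495, whose miRNA acts like miR-410 on cultured rat cardiomyocytes, averaged 6.69 ± 0.453 CPM in knockout and 5.47 ± 0.764 CPM in control hearts (SD, n = 3 each; log2 fold change 0.29, adjusted p = 0.289). Among the other uncalled genes, the log2 fold change was largest for Mir1193 (1.01, SE 0.44, adjusted p = 0.073), which had 0.507 to 1.6 CPM in any library.

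**Figure D4:**
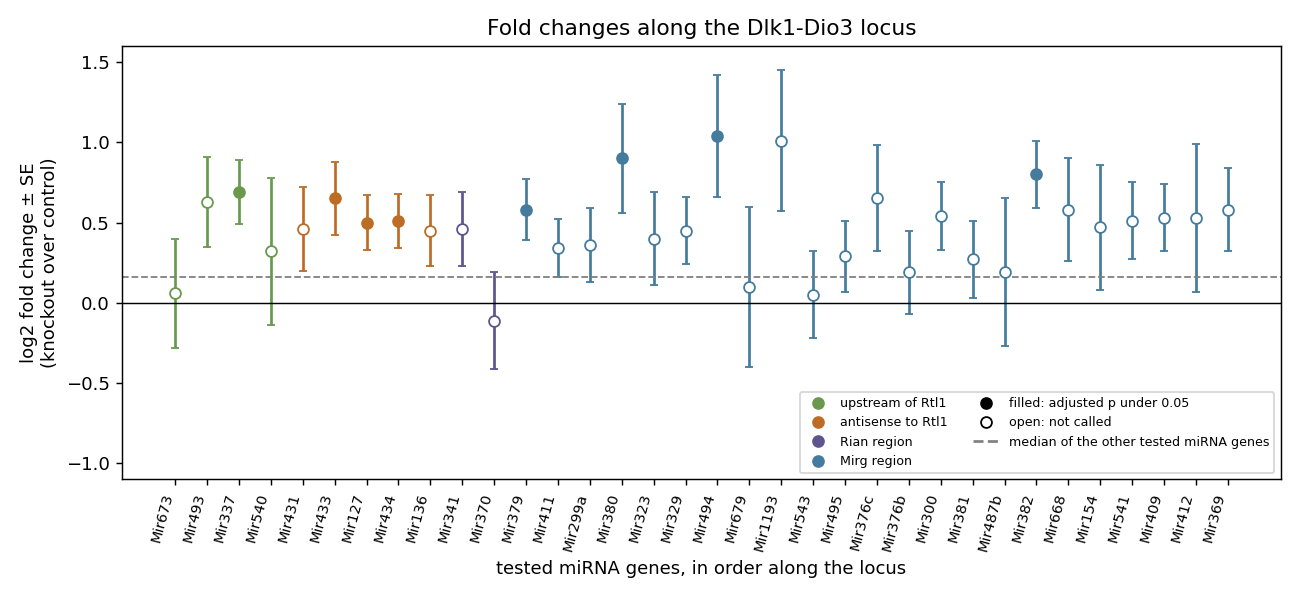
Log2 fold change (knockout over control) with its SE for the 34 tested miRNA genes in order along the locus, coloured by region, with called genes filled. Values lie between -0.11 (Mir370) and 1.04 (Mir494), and most lie above the dashed median of the other miRNA genes at 0.16; under snoRNA and scaRNA factors 31 of the 34 are negative.

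Members of the cluster differed more in level than in fold change. The 5 most abundant, Mir127, Mir381, Mir379, Mir434 and Mir541, held 76.1% of the cluster's counts, and the top 12 held 93.1%. Per 100 nt of hairpin the same 5 genes led in the same order, with 423, 307, 259, 124 and 113 CPM per 100 nt over all 6 libraries. At the other end, 7 members had counts but failed the filter (Mir665, Mir299b, Mir758, Mir667, Mir376a, Mir539 and Mir496a), and none of them passed 16 counts in any library. Of the 6 most abundant members, 5 had shares of the cluster's counts that overlapped between the groups. Mir127 held 25.0% ± 2.27 of cluster counts in knockout and 24.4% ± 2.28 in control hearts, and Mir434 held 9.87% ± 0.377 in knockout and 9.59% ± 0.88 in control hearts (SD, n = 3 each). Mir381 held 17.6%, 17.3% and 19.4% in knockout mice and 21.8%, 15.7% and 22.9% in control mice. Mir541 held 8.63% ± 1.41 in knockout and 8.18% ± 1.15 in control hearts (SD, n = 3 each). Mir411 held 5.94% ± 0.292 in knockout and 6.49% ± 0.933 in control hearts (SD, n = 3 each). Mir379 held 14.8% ± 0.252 in knockout and 13.5% ± 0.764 in control hearts (SD, n = 3 each), without overlap.

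Among the controls, mouse 2 stood apart in this cluster. Its members summed to 840 CPM, against 1150 and 1060 CPM in control mice 1 and 3 and 1420, 1350 and 1400 CPM in knockout mice 1 to 3. That deficit was uneven: relative to the mean of the other 2 control mice, 9 of 34 members were lower in control mouse 2 by over 0.5 on the log2 scale, including Mir381 (-0.90), Mir370 (-1.13), Mir543 (-0.91) and Mir541 (-0.72). Another 3 were higher by over 0.5, Mir494 (1.36), Mir154 (0.97) and Mir487b (0.58). The members' median was -0.14, against -0.01 in 277 other miRNA genes, of which 39 were lower and 30 higher by over 0.5 in that mouse. Over the 34 members this difference had a Pearson r of -0.46 with the GC content of the hairpin, and over 212 other tested miRNA genes with a RefSeq hairpin r was -0.10. These are descriptions across genes of the same libraries, which are not independent. The part of this in the results was not tested. Without control mouse 2 the log2 ratio of the cluster's share of miRNA counts was 0.38, against 0.52 with all mice.

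The rest of the domain gave little more. Between Dlk1 and Dio3 the table holds 67 further features, of which 10 passed the filter, 3 rose and 0 fell, a count too small to set apart from the 23.2% of all features called higher. The long non-coding RNA Rian had 84.5, 77.5 and 101 CPM in knockout mice, against 62.3, 63.7 and 61.4 CPM in control mice (log2 fold change 0.49, SE 0.18, adjusted p = 0.0446). Its exons also hold 8 snoRNA genes, all at 0 counts, and its reads are uncertain for that reason. The snoRNA genes Gm23787 and Gm25854 also rose (log2 fold change 0.91 for each, adjusted p = 0.0231 and 0.0382), while the most abundant snoRNA tested in the domain, DQ267102, was not called (log2 fold change 0.29, adjusted p = 0.457). Mirg was not called (log2 fold change 0.02, adjusted p = 0.977) and Meg3 had at most 1 count in a library. Mir666, a miRNA gene between Mir379 and Mir410 that was not listed, was also not called (log2 fold change 0.26, adjusted p = 0.532). Dlk1, Rtl1 and Dio3, which code for proteins, were not analysed here.

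Other imprinted miRNA genes were measured beside these. Of 5 listed (Mir675, Mir483, Mir296, Mir298 and Mir335), 4 were tested, and Mir296 and Mir298 rose. Mir298 had 8.94, 11.4 and 10.6 CPM in knockout mice, against 3.77, 2.87 and 3.99 CPM in control mice (log2 fold change 1.54, SE 0.23, adjusted p = 0.000217), above the value of any Dlk1-Dio3 member. Another 81 genes were picked by the family names of the imprinted Sfmbt2 intron cluster, without a check of their positions. Of these, 14 were tested, many of them near-identical copies, and 0 rose or fell (median log2 fold change 0.14).

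Summed markers of cell types lay apart between the groups for the cardiomyocyte, fibroblast and leukocyte lists, and overlapped or were 0 for the others. Cardiomyocyte miRNA genes (7 of 7 tested) summed to 72700 to 93300 CPM in knockout and 118000 to 148000 CPM in control hearts, with Mir1a-1 and Mir1a-2 lower and Mir208b higher. Fibroblast miRNA genes (2 of 4 tested, both higher; Mir199a-2 and Mir214 had 0 counts) summed to 2220 to 2350 CPM in knockout and 1160 to 1630 CPM in control hearts. Endothelial (1 of 2 tested, Mir126b at 0) and smooth muscle (2 of 2 tested) lists overlapped between the groups. They had 17600 to 21000 against 19500 to 23800 CPM and 22100 to 30000 against 26700 to 33600 CPM. The red cell list (2 of 2 tested, Mir144 higher) had 877 to 1420 against 504 to 1190 CPM. In the leukocyte list (2 of 6 tested, Mir150 lower, Mir155 and Mir223 at 0) the sums were 159 to 193 against 125 to 156 CPM. The neuron list, whose tissue is rich in this cluster, had 33.9 to 46.7 CPM in knockout and 40.7 to 49.9 CPM in control hearts. Only 2 of its 6 genes were tested, with 0 called, and Mir124a-1 and Mir9-2 had 0 counts. The skeletal muscle genes Mir206 and Mir133b had 0 counts too. Overlap with exons of other counted features was not reported for marker genes at 0, so these zeros are not read as absence. In whole hearts, more RNA per cell and more cells of a type cannot be told apart, and the part of cell makeup in the cluster's values was not tested.

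In the authors' deposited table, which has an adjusted p for 41 members, 7 were higher at an adjusted p under 0.05 and 0 lower, where 8.78% of all features with an adjusted p were higher. Of these 7, 5 were also called here (Mir127, Mir337, Mir379, Mir382 and Mir434), and Mir300 and Mir409 were not among the 8 called by edgeR. DESeq2 run on the same 1144 features called 8 members higher (21% of all features), 7 of them shared with edgeR's 8. It called Mir300 (adjusted p = 0.0456) and not Mir380 (adjusted p = 0.151).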

How the data were processed

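Per the labels' protocols, RNAs of 15 to 100 nt were selected and sequenced from both ends. Each mouse had 4 technical replicates, and no source says how these became 1 count column. The authors deposited raw counts per feature, the input of every test. Their deposited comparison gave, per the file headers, symbols, RNA types, log2 fold changes and adjusted p-values. The submitters' processing notes name the build mm10 and, without roles, DESeq2 1.16.1, featureCounts 1.5.1, Bowtie2 2.2.9 and cutadapt 1.14. The strand setting, the annotation and the handling of multiply aligned reads were not given. Positions came from GENCODE M21 (GRCm38), which held 29747 of 29863 gene IDs.

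Features were filtered with filterByExpr (minimum count 10, minimum total 15), which kept at least 99.89% of each library. Counts were scaled by TMM and tested with edgeR 4.0.16 (R 4.3.3; no covariate; Benjamini-Hochberg adjusted p under 0.05; biological coefficient of variation 0.217). The SE is the log2 fold change over the square root of F. DESeq2 1.42.0 was an alternative. Libraries of a group were distinct (lowest chi-square per degree of freedom 79.1). Values in every mouse were given for the 12 most abundant members and the 5 largest called changes per direction, and other called members were added. The members, lists and tests were chosen with earlier results of these data known. Tables used Python 3.11.15 and pandas 2.3.3.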

Additional observations from a re-analysis of the deposited data

How the results depend on the processing

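As reported, 8 members were called higher (23.2% of all features) and 0 lower (27%). Total counts alone gave 0 higher (14.9%), factors from miRNA genes 1 (16.6%) and the miRNA genes alone 1 (8.36%). Factors from snoRNA and scaRNA genes gave 0 higher (8.83%) and 5 lower (57.6%). Factors from small nuclear RNA and nuclear rRNA genes gave 23 higher (35.8%). With no filter on low counts 17 of 41 were called higher, against 4.68% of all 9254 features and 96 of 837 other miRNA genes. That fit also moved fold changes over shared features up by 0.36. RLE size factors gave 7 (22.4% of all features), losing Mir380, and DESeq2 gave 8 (21%), losing Mir380 and gaining Mir300. Leaving out 1 mouse gave between 2 and 18 higher (19.3% to 24.8% of all features over the 6 fits) and 0 lower (22.3% to 39.6%), with 0.21 to 0.24 of upward shift over shared features without a knockout mouse. With the replicate number as a block 3 of 34 were called higher (Mir382, Mir337 and Mir494), against 21.2% of all features. The numbers of the titles share no stated source, and deviations of same-numbered mice correlated at -0.179, -0.018 and -0.233. These values give no sign that the numbers pair the mice, but with 3 mice per group they cannot exclude it. The log2 ratio of the cluster's share of miRNA counts was 0.52, fell to 0.11 as a share of all counts, and lay between 0.38 and 0.61 with 1 mouse left out. With the 5 most abundant other miRNA genes left out, an alternative chosen after seeing the data, it was 0.33.

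Over 225 alternative values of 15 named members, 136 kept their direction and side of the threshold. Another 43 lost and 27 gained a call with the same direction, and 19 turned sign, called or not. Signs turned under snoRNA and scaRNA factors for Mir127 (-0.36), Mir381 (-0.60), Mir379 (-0.28), Mir434 (-0.35), Mir541 (-0.35), Mir411 (-0.51), Mir409 (-0.33), Mir300 (-0.32), Mir382 (-0.05), Mir136 (-0.40), Mir337 (-0.16) and Mir433 (-0.20). Mir381 also turned with total counts (-0.08) and without control replicate 2 (-0.01). Mir370 turned under small nuclear RNA and rRNA factors (0.39), without a filter (0.22), without knockout replicates 2 (0.12) and 3 (0.14), and without control replicate 1 (0.22). With 1 mouse left out, Mir381 lay between -0.01 and 0.54 and Mir370 between -0.44 and 0.22, and neither was called. Apart from the scalings and the left-out mice, the cause was not tested. Depth limits the rarest members most: Mir380 was called on 11 to 24 counts a library.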
